A study of Oryctolagus cuniculus with 24 samples.

Results

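CCL2, CCL4, CCL14, CCL21 and CCL27 are CC chemokines, small secreted proteins that attract leukocytes. They were followed here in rabbit peripheral blood mononuclear cells (PBMCs), the lymphocytes and monocytes of blood, after a stimulus. The genes were chosen by symbol, with earlier results of these data known. All 5 were found among the 28863 genes that the array measured. The blood came from 4 adult females of the New Zealand White breed, whose numbers in the labels are 1, 2, 4 and 5. Cells of each rabbit were cultured under 6 conditions, and each culture was hybridized to 1 array, which made 24 arrays on 3 slides. Mock-stimulated cells received buffer alone. LPS, a component of the wall of Gram-negative bacteria that is sensed by TLR4, was used at 1 µg/mL. PMA-Ionomycin combined PMA, an activator of protein kinase C, at 10 ng/mL with ionomycin, a calcium ionophore, at 1 µg/mL. Cells were harvested after 4 h (T4) or 24 h (T24), and no uncultured cells are among the groups, so that every level is that of cultured cells.

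CC chemokines carry adjacent cysteines near the amino end and act on receptors coupled to G proteins. Inflammatory members are transcribed after a stimulus, whereas homeostatic members are made steadily in lymphoid organs or skin and direct the traffic of resting cells. CCL2 acts on CCR2 and draws monocytes, and CCL4, also called MIP-1β, draws monocytes, NK cells and activated T cells. CCL14 is a plasma chemokine that acts on CCR1, CCL21 guides cells with CCR7 to lymph nodes, and CCL27 is the keratinocyte chemokine for T cells with CCR10.

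The array reports each gene through probes of 60 bases, and their sequences show how far the measurements of a gene were separate. CCL2 had 5 probes in 7 spots. The 4 with a position lay at chr19:23721810-23721930 of the rabbit genome build oryCun2, on the plus strand, each overlapping its neighbour. The fifth belonged to the gene set that the authors added to an earlier design, was spotted 3 times, and differed from an older probe at 1 base, C9T, counted from the 5′ end. The first 30 bases of both are given with that base in capitals.
CCL2, earlier design: tgtgaaccCcagttctatacctggaatatt
CCL2, added gene set: tgtgaaccTcagttctatacctggaatatt
CCL4 had 6 probes in 8 spots. The 5 with a position lay at chr19:25045560-25045624 on the plus strand, and the added probe had the same sequence as an older one. A stretch of 30 bases was common to all 6 CCL4 probes, and its capitals mark AATAAA, the letters of the polyadenylation signal. All 4 probes of CCL21 lay at chr1:19113804-19114646 on the plus strand. Of these, 3 overlapped and carried AATAAA, and the fourth lay upstream without it, so both places are shown.
CCL4, shared by its probes: agttgattctatgtattctcatAATAAAac
CCL21, overlapping probes: atgatttatacctaactgAATAAAaagctg
CCL21, upstream probe: aaggaagattccccacaaggttgtccgcag
Of all 42089 probes, 5.0% held AATAAA as printed and 2.94% held TTTATT, its reverse complement. None of the probes of the 5 genes held TTTATT. CCL14 and CCL27 were each measured by a single sequence. The CCL14 probe came from the added gene set, was spotted 3 times and carried no position, and its name rests on the authors' list of that set. The CCL27 probe was spotted once, at chr1:19163270-19163330 on the plus strand, 48.6 kb from the probes of CCL21. The whole CCL14 probe and the first 30 bases of the CCL27 probe are given.
CCL14, added gene set: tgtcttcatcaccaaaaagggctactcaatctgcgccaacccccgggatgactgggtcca
CCL27, earlier design: caagggaagaggctccaggggactaacctg
The files do not say in which part of the transcript these positions lie. No run of 20 bases of the CCL2, CCL4, CCL14 or CCL27 probes occurred in a probe of another gene, on either strand. For CCL21, 2 probes without a gene symbol shared such a run. In the order of the RefSeq annotation, CCL2 follows CCL11 and CCL7, CCL4 follows HEATR6, CCL14 lies a gene away from CCL5, and CCL27, CCL19 and CCL21 lie close together.

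Levels are log2 signals relative to the median of the array, so that 0 is the median spot. They were compared within a gene and not between genes. On the arrays, 51.4 to 62.3% of the spots were well above background, which is the scanner software's call that a spot exceeds its local background. Markers of the labelled cells were present. B cell markers had array medians between 1.71 and 4.79, and monocyte markers between 0.41 and 4.64, whereas all 3 keratinocyte markers found were at background on every array. Of 9 T cell markers found, 6 to 8 were detected on all 4 arrays of a group, and CD4 was not well above background in any group. PBMCs are a mixture, and fewer cells of a type cannot be told apart from less RNA per cell. A gene was called when its adjusted p in limma, a linear model with moderated variance fitted to all genes, was under 0.05 after Benjamini-Hochberg correction.

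After LPS, none of the 5 chemokines was called at T4, where limma called 1.03% of all genes (0.0554% higher and 0.974% lower). At T24 the calls differed with the pairing of cultures by rabbit. None of the 5 was called in the fit of group means alone, beside 1.22% of all genes (0.637% higher and 0.582% lower). With the rabbit as a block, CCL2 and CCL4 were called higher and CCL27 lower, beside 2.6% of all genes, and each of these differences had the same direction in 4 of 4 rabbits. Without correction, 1 of the 5 had a p under 0.05 after LPS at T4 and 4 of the 5 at T24, beside 4015 and 3130 of all 28863 genes. After PMA-Ionomycin, 1 of the 5 was called at T4, which was CCL2, higher, beside 22.8% of all genes (13.4% higher and 9.35% lower). At T24, CCL2, CCL4 and CCL27 rose and CCL21 fell, 4 of the 5 beside 33.6% of all genes (22.1% higher and 11.5% lower). The members' median log2 FC at T24 was 1.14, and that of all genes was 0.03. The paper lists all 5 as changed in this comparison on these arrays. The count and the median therefore describe the members and do not test them as a set.

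The direct comparison of PMA-Ionomycin with LPS called CCL2 and CCL14 higher at T4, beside 26.7% of all genes (17.7% higher and 9.04% lower). At T24 it called CCL27 higher, beside 36.1% (23.6% higher and 12.5% lower). Between the mock cultures of both times, CCL2 rose and CCL4 and CCL14 fell from T4 to T24, 3 of the 5 beside 12.5% of all genes (7.41% higher and 5.13% lower). An interaction with time, the test of whether a stimulus acted differently at T24 than at T4, was called for none of the 5 with LPS, beside 1.94% of all genes (1.7% positive and 0.239% negative). Without correction, 4 of the 5 had a p under 0.05 in that test, beside 4718 of all genes. For PMA-Ionomycin the interaction was called for CCL27, positive, beside 22.5% (14.4% positive and 8.15% negative). The stimulated cultures of a time were compared with the same mock arrays, so that these comparisons share their controls.

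**Figure D1:**
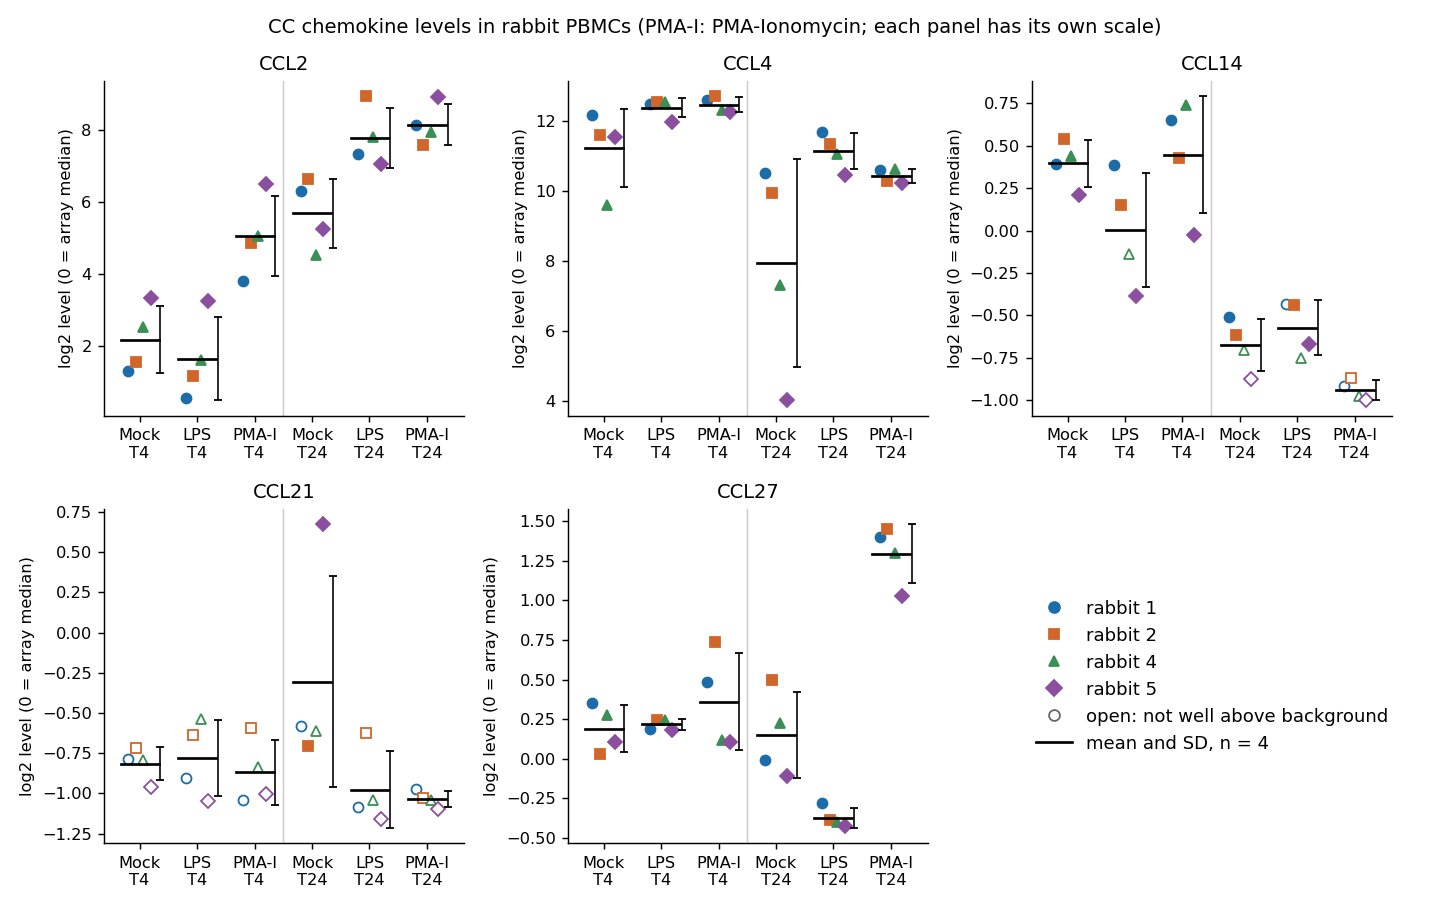
Log2 levels of the 5 chemokines relative to the array median (y axis, a scale for each gene) in the 6 groups (x axis). Points are the 4 rabbits, open where the gene was not well above background, and bars give the mean and SD. In each of the 3 treatments, CCL2 was higher at T24 than at T4, the CCL4 values of mock cells at T24 spread from 4.03 to 10.52, and CCL27 of PMA-Ionomycin cells at T24 lay above all other groups.

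CCL2 rose with PMA-Ionomycin at both times and rose in mock cells between both times. In mock cells at T4 its levels were 1.30, 1.56, 2.54 and 3.33 in rabbits 1, 2, 4 and 5. After LPS at T4 they were 0.56, 1.16, 1.61 and 3.25, and after PMA-Ionomycin at T4 they were 3.81, 4.87, 5.05 and 6.50. Every PMA-Ionomycin culture at T4 was above all mock and all LPS cultures of that time, and the latter overlapped each other. In mock cells at T24 the CCL2 levels were 6.31, 6.64, 4.53 and 5.26 in the same order of rabbits. They were 7.34, 8.94, 7.80 and 7.04 after LPS and 8.15, 7.59, 7.95 and 8.92 after PMA-Ionomycin. At T24 neither stimulated group overlapped the mock group, and the stimulated groups overlapped each other.

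The CCL2 difference of PMA-Ionomycin from mock at T4 was 2.88 ± 0.60 on the log2 scale (estimate and SE, n = 4 rabbits), a FC of 7.35 (limma, adjusted p = 0.000835). At T24 the difference was 2.47 ± 0.60, a FC of 5.53 (adjusted p = 0.00217), and it was 1.87 with quantile normalization (adjusted p = 0.0301) and 1.87 with normexp (adjusted p = 0.029). Both were positive in 4 of 4 rabbits, and within each of the 3 slides the T4 values spanned 1.63 to 4.58 and the T24 values 1.28 to 3.25. On each slide the stimulated and mock cultures came from different rabbits, so values within slides also hold differences between animals. The interaction of PMA-Ionomycin with time was -0.41 (95% interval -2.18 to 1.36, adjusted p = 0.855), an interval that reaches to both sides of 0. At T4 the CCL2 level of PMA-Ionomycin cells exceeded that of LPS cells by 3.41 ± 0.60, a FC of 10.6 (adjusted p = 0.000119). At T24 the same difference was 0.37, with an interval from -0.88 to 1.62 (adjusted p = 0.749).

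LPS at T4 gave a CCL2 difference of -0.54 (95% interval -1.79 to 0.72, adjusted p = 0.726). At T24 the CCL2 level after LPS exceeded that of mock cells in 4 of 4 rabbits, by 1.04, 2.30, 3.27 and 1.79. The estimate was 2.10 ± 0.60, a FC of 4.28, with an adjusted p of 0.101, so CCL2 was not called. With the rabbit as a block the adjusted p was 0.0422. The LPS by time interaction of 2.63 ± 0.85 (adjusted p = 0.109) had an adjusted p of 0.0487 with that block, which called 5.75% of all genes in that test. Without rabbit 5 the difference at T24 was 2.20 (adjusted p = 0.0283). It was not called without rabbit 1 (2.45, adjusted p = 0.13), rabbit 2 (2.03, adjusted p = 0.407) or rabbit 4 (1.71, adjusted p = 0.742).

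CCL2 also changed with time in mock cells. Mock cells at T24 exceeded those at T4 by 3.50 ± 0.60, a FC of 11.3 (limma, adjusted p = 0.000235). For rabbits 1, 2, 4 and 5 the rise was 5.01, 5.08, 1.996 and 1.93, and the groups did not overlap. Over the sets with a rabbit left out it ranged from 2.98 to 4.03. Monocyte markers moved in the same direction, as 7 of the 10 found rose from mock T4 to mock T24, and so did 3 of 5 neutrophil markers. After PMA-Ionomycin at T24 both lists moved against CCL2, as 8 of 10 and 3 of 5 fell against mock. Their part in the CCL2 levels was not tested. In the order of group means, CCL2 was lowest after LPS and in mock cells at T4. PMA-Ionomycin at T4 and mock at T24 followed, with values that overlap, and LPS and PMA-Ionomycin at T24 were highest.

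CCL4 was well above background on every array, fell in mock cells from T4 to T24, and was higher after PMA-Ionomycin than in mock cells at T24. At T4 the levels in rabbits 1, 2, 4 and 5 were 12.17, 11.60, 9.61 and 11.53 in mock cells. They were 12.48, 12.54, 12.55 and 11.96 after LPS and 12.60, 12.70, 12.30 and 12.26 after PMA-Ionomycin. The stimulated groups were close to each other, and the mock culture of rabbit 4 was lower than all others of that time. Every PMA-Ionomycin culture at T4 was above every mock culture, while LPS and mock overlapped. At T24 the mock levels of CCL4 were 10.52, 9.96, 7.33 and 4.03. They were 11.69, 11.36, 11.06 and 10.46 after LPS and 10.61, 10.29, 10.62 and 10.24 after PMA-Ionomycin. Mock cells of rabbits 1 and 2 thus lay near the stimulated cultures, and those of rabbits 4 and 5 lay far below.

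The CCL4 difference of PMA-Ionomycin from mock at T24 was 2.48 ± 0.84, a FC of 5.57 (limma, adjusted p = 0.0243). By rabbit it was 0.09, 0.33, 3.29 and 6.21. Within slides, between different rabbits, it ranged from -0.24 to 4.93, and -0.24 set rabbit 2 against mock cells of rabbit 1. Without rabbit 5 the difference was 1.23 (adjusted p = 0.163), and without rabbit 4 it was 2.21 (adjusted p = 0.147), so the call rested on each of these animals. Without rabbit 1 it was 3.28 and without rabbit 2 it was 3.20, and both kept the call. Quantile normalization (adjusted p = 0.0534), the processed signal (0.0557), normexp (0.0587), only the arrays compared (0.134) and array weights (1.67, adjusted p = 0.0653) ended it, so that 7 of 18 alternatives did. LPS at T24 gave a larger estimate, 3.18 ± 0.84 or a FC of 9.07, with an adjusted p of 0.0656, and without rabbit 5 it was 2.10 (adjusted p = 0.0969). By rabbit the LPS differences were 1.16, 1.40, 3.73 and 6.44, and within slides, again between different rabbits, they ranged from 0.39 to 6.01. With the rabbit as a block the adjusted p for CCL4 after LPS at T24 was 0.0194. The stimulated groups differed from each other by -0.70 at T24, lower after PMA-Ionomycin in 4 of 4 rabbits (95% interval -2.44 to 1.04, adjusted p = 0.63). With only the arrays of these groups in the fit, the adjusted p for this difference was 0.0292.

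At T4 neither stimulus gave a CCL4 call. The differences from mock were 1.15 (95% interval -0.59 to 2.90) after LPS and 1.24 (-0.50 to 2.98) after PMA-Ionomycin, with adjusted p values of 0.578 and 0.386. Both were positive in 4 of 4 rabbits and were larger in rabbit 4 than in the others, at 2.94 and 2.69. From T4 to T24 the level of CCL4 in mock cells fell by 3.27 ± 0.84 on the log2 scale, a FC of 9.65 (adjusted p = 0.00964). The differences were -1.65, -1.65, -2.28 and -7.50 in rabbits 1, 2, 4 and 5. Without rabbit 5 the change was -1.86 (adjusted p = 0.0615). The call was also lost with array weights (-1.94, adjusted p = 0.0655) and with only the mock arrays in the fit (adjusted p = 0.174). The interactions with time were 2.03 for LPS (adjusted p = 0.408) and 1.24 for PMA-Ionomycin (adjusted p = 0.591), and neither was called. Without rabbit 5 they were 0.70 (adjusted p = 0.724) and -0.17 (adjusted p = 0.957).

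CCL14 fell with time in mock cells and lay near the median spot or below it in every group. At T4 its levels were 0.39, 0.54, 0.44 and 0.21 in mock cells of rabbits 1, 2, 4 and 5. They were 0.39, 0.15, -0.14 and -0.39 after LPS and 0.65, 0.43, 0.74 and -0.03 after PMA-Ionomycin. At T24 they were -0.51, -0.61, -0.70 and -0.87 in mock cells, all below the mock levels of T4. After LPS at T24 the levels were -0.43, -0.44, -0.75 and -0.67, and after PMA-Ionomycin they were -0.91, -0.87, -0.98 and -1.0006. CCL14 was well above background on all 4 arrays of mock and of PMA-Ionomycin cells at T4, on 2 of 4 arrays of mock and of LPS cells at T24, and on no array of PMA-Ionomycin cells at T24.

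In mock cells the level of CCL14 fell by 1.07 ± 0.16 on the log2 scale from T4 to T24, a FC of 2.10 (limma, adjusted p = 4.28e-05). With the processed signal the change was -2.24 (adjusted p = 0.000105). The difference ranged from -1.15 to -0.90 over the rabbits. PMA-Ionomycin at T4 exceeded LPS at T4 by 0.44 ± 0.16 (adjusted p = 0.0413), higher in 4 of 4 rabbits although the groups overlapped. This call was lost without rabbit 1 (0.50, adjusted p = 0.0602), without rabbit 2 (0.50, adjusted p = 0.0973), without rabbit 4 (0.30, adjusted p = 0.385) and with the slide as a block (0.44, adjusted p = 0.0533). Against mock, CCL14 was not called after either stimulus. For LPS at T4 the difference was -0.39 (adjusted p = 0.247). At T24 the CCL14 level after PMA-Ionomycin was not well above background on any array, so that its differences are bounds. Against mock the bound is at least 1.19-fold lower (fitted difference -0.26, adjusted p = 0.244). It was called lower with the deposited log2 table (fitted difference -0.40, adjusted p = 0.0425) and with the scanner's processed signal (-1.65, adjusted p = 0.000747). Against LPS the bound is at least 1.28-fold lower (adjusted p = 0.0792, and 0.0223 with the rabbit as a block, which called 39.2% of all genes there).

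CCL21 was not well above background on 22 of the 24 arrays, and the exceptions were mock cells of rabbits 2 and 5 at T24. At T24 its mock levels were -0.58, -0.70, -0.61 and 0.68 in rabbits 1, 2, 4 and 5, so that rabbit 5 stood apart. In the other 5 groups the levels lay between -1.16 and -0.54. The CCL21 level of PMA-Ionomycin cells at T24 was at background on all arrays, from -1.10 to -0.97, and below every mock culture of that time. The fold is therefore a bound, at least 1.60-fold lower after PMA-Ionomycin (fitted difference -0.73 ± 0.21, limma, adjusted p = 0.00887). Without rabbit 5 the difference was -0.38 (adjusted p = 0.0558), and only the arrays compared (adjusted p = 0.0626) and a minimum fold of 2 also ended the call. With the processed signal the fitted difference was -2.42 (adjusted p = 0.000241). LPS at T24 gave a bound of at least 1.54-fold lower (fitted difference -0.67, adjusted p = 0.154). Without rabbit 5 that difference was -0.28 (adjusted p = 0.395), and with the processed signal it was -2.13 (adjusted p = 0.0215). At T4 all groups of CCL21 were at background, and no fold is given between them there. Mock cells at T24 exceeded those at T4 by a bound of at least 1.38-fold (fitted difference 0.51, adjusted p = 0.141). Without rabbit 5 the difference was 0.13 (adjusted p = 0.699), while quantile normalization (0.56, adjusted p = 0.0487) and the processed signal (1.69, adjusted p = 0.0172) gave a call. Endothelial and stromal markers, from cells that are a usual source of CCL21, had 0 of the 6 found detected throughout a group. After PMA-Ionomycin at T24, 8 of 10 monocyte, 3 of 5 neutrophil, 3 of 3 dendritic cell and 4 of 7 B cell markers fell, as CCL21 did. In that comparison 1 B cell marker and 2 of 3 NK cell markers rose. The part of these lists in the CCL21 levels was not tested.

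CCL27 rose after PMA-Ionomycin at T24. At T4 its levels were 0.35, 0.03, 0.28 and 0.11 in mock cells of rabbits 1, 2, 4 and 5. They were 0.19, 0.24, 0.25 and 0.18 after LPS and 0.49, 0.74, 0.12 and 0.10 after PMA-Ionomycin. All groups of T4 overlapped. At T24 the mock levels of CCL27 were -0.01, 0.50, 0.23 and -0.11, and those after LPS were -0.28, -0.39, -0.40 and -0.43. After PMA-Ionomycin they were 1.40, 1.45, 1.30 and 1.03, and the 3 groups of T24 did not overlap. CCL27 was well above background on all 24 arrays.

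The CCL27 level of PMA-Ionomycin cells at T24 exceeded mock by 1.14 ± 0.14, a FC of 2.21 (limma, adjusted p = 6.72e-07). By rabbit the difference ranged from 0.95 to 1.41, and within slides, between different rabbits, from 0.66 to 1.46. At T4 the difference was 0.17 (95% interval -0.12 to 0.47, adjusted p = 0.52). The interaction with time was 0.97 ± 0.20 (adjusted p = 0.000816), positive in 4 of 4 rabbits, so the effect of PMA-Ionomycin on CCL27 differed between both times. Against LPS at T24 the CCL27 difference was 1.67 ± 0.14, a FC of 3.18 (adjusted p = 1.67e-09), and it was 2.28 with the processed signal (adjusted p = 3.18e-08). LPS at T24 lay below mock by 0.27, 0.89, 0.63 and 0.32 in rabbits 1, 2, 4 and 5. That estimate was -0.53 ± 0.14 (adjusted p = 0.0746), and with the rabbit as a block the adjusted p was 0.0284. In mock cells CCL27 differed by -0.04 between both times (95% interval -0.33 to 0.26, adjusted p = 0.903).

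**Figure D2:**
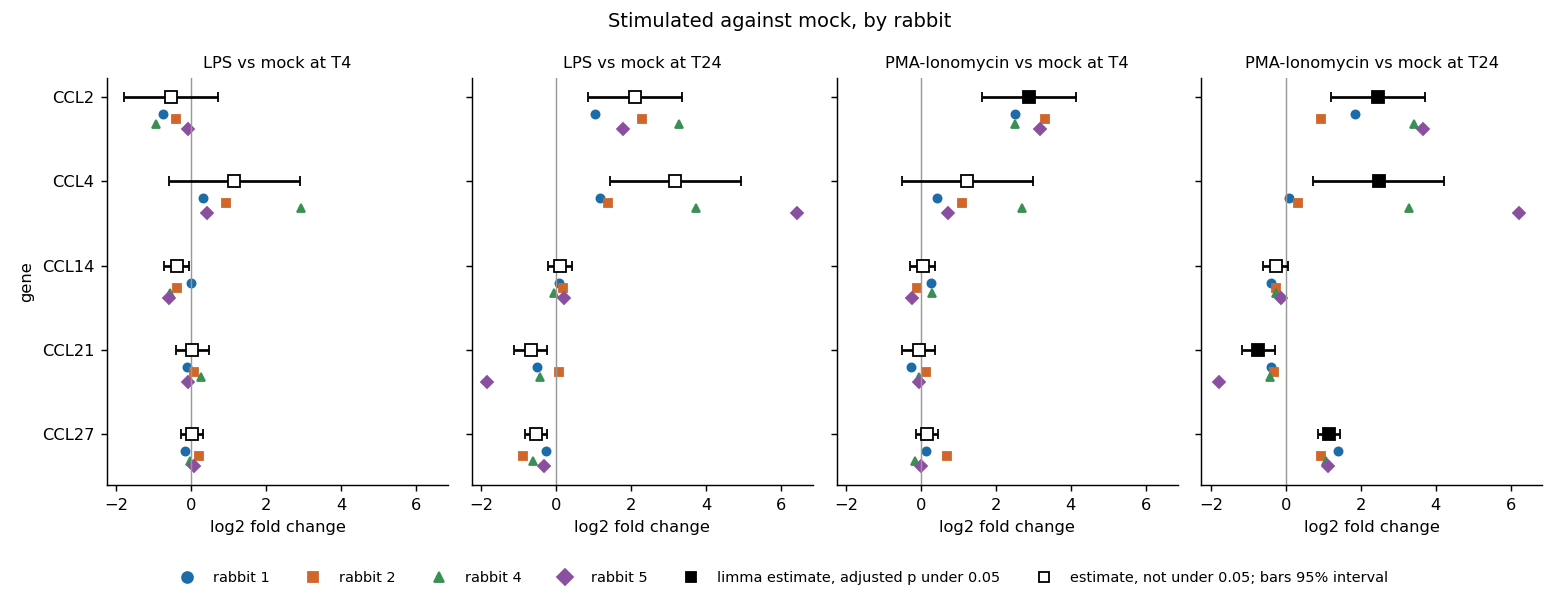
Log2 FC of each chemokine (rows) for both stimuli against mock at both times (panels, shared x axis). Squares with bars give the limma estimate and its 95% interval, filled where the adjusted p was under 0.05, and small points give the 4 rabbits. The CCL4 differences at T24 spread from 0.09 to 6.44 over rabbits and stimuli, while those of CCL27 after PMA-Ionomycin stayed between 0.95 and 1.41.

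The probes of a gene gave close values. For CCL2 after PMA-Ionomycin, the 5 probes lay between 2.83 and 2.91 at T4 and between 2.39 and 2.53 at T24, and all 5 were called at both times. The probe with the C9T difference lay within or at the edge of these ranges. For CCL4, the 6 probes ranged from 2.41 to 2.53 after PMA-Ionomycin at T24, where all 6 were called, and from 3.11 to 3.25 after LPS at T24, where 1 was called. The CCL21 probes ranged from -0.88 to -0.41 after PMA-Ionomycin at T24. The 3 overlapping probes were called and the upstream one was not (-0.41, adjusted p = 0.145). Since probes of a gene overlap or share their sample, they are not replicates.

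**Figure D3:**
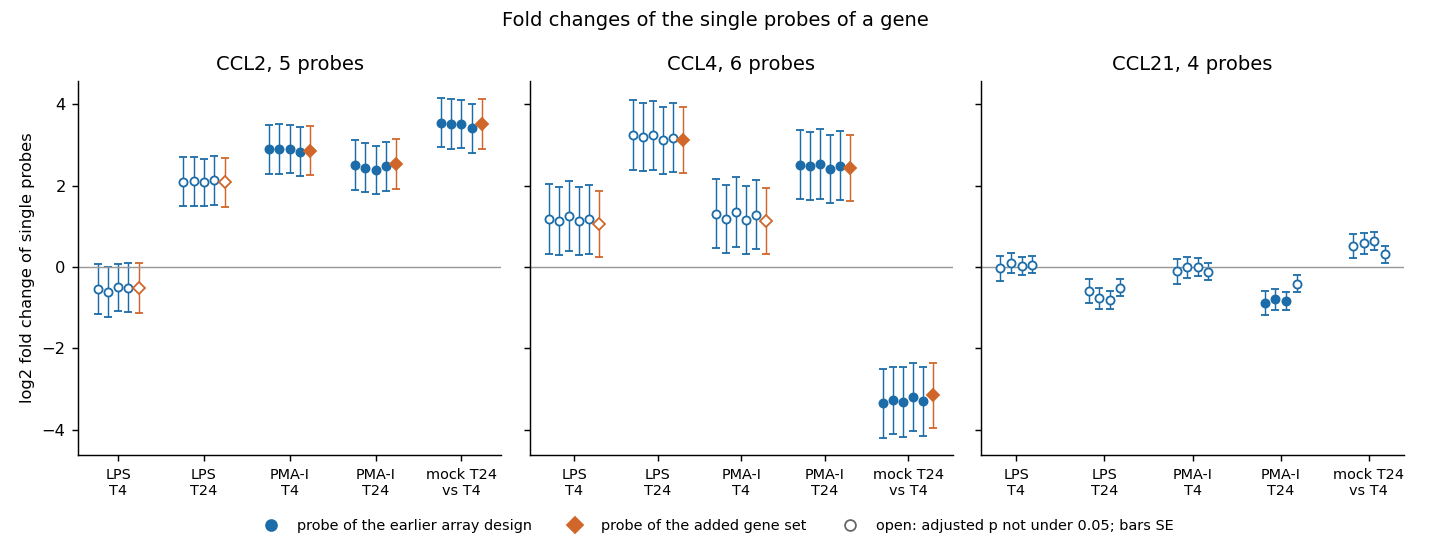
Log2 FC of single probes (y axis, with SE) of CCL2, CCL4 and CCL21 for both stimuli against mock and for mock cells at T24 against T4 (x axis). Diamonds mark probes of the added gene set, and filled symbols passed an adjusted p of 0.05 in the fit of single probes. Probes of a gene lay close together in each comparison, and the upstream CCL21 probe at the right of each cluster was nearest to 0 after PMA-Ionomycin at T24.

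Across the 24 arrays the 5 chemokines did not vary as a block. The Pearson correlation of their levels was -0.72 between CCL2 and CCL14 and 0.55 between CCL4 and CCL14. Between CCL4 and CCL21 it was -0.65, but -0.0092 without the array of mock cells of rabbit 5 at T24, and CCL21 was near background on most arrays. The other 7 pairs lay between -0.26 and 0.19, and between -0.39 and 0.30 without that array. These points share rabbits, slides and the group means, and the values are descriptions. Likeness was searched among 6308 genes with a symbol (6309 for CCL21), each detected on the 4 arrays of 1 group or more. The levels most like those of CCL4 were IL6 (r = 0.91), TNF (0.89) and PTGS2 (0.87), which encode a pair of inflammatory cytokines and the inducible cyclooxygenase. For CCL14 they were NFKB2, a subunit of NF-κB (0.93), SYTL3 (0.93) and SEMA3C (0.91). For CCL2 they were COPRS (0.93), ADISSP (0.92) and CFDP1 (0.91), and for CCL27 MRPL1 (0.91), HAT1 (0.91) and WDR36 (0.91). CCL21 had no gene as close, with ASPA (0.75), MPO (0.72) and PDE3B (0.68) at the top, which were 0.53, 0.36 and 0.39 without that array.

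Of 21 other CC chemokines listed, 6 were found on the array under these names, which were CCL5, CCL7, CCL17, CCL19, CCL20 and CCL25. The paper reports CCL1 and CCL22 from this array, so a name not found here does not mean a gene not measured. With the names used here, 21798 probes had no symbol. None of the 6 was called after LPS at either time. CCL20, which attracts cells with CCR6, rose after PMA-Ionomycin at both times and was at background in all mock and LPS groups. The rise was at least 4.19-fold at T4 (limma, adjusted p = 2.69e-08) and at least 5.13-fold at T24 (adjusted p = 9.66e-10), in 4 of 4 rabbits. CCL5, which draws T cells and monocytes, fell by 3.03 ± 0.42 on the log2 scale in mock cells from T4 to T24 (adjusted p = 1.93e-05). In the same comparison 4 of 5 platelet markers (median log2 FC -1.79) and 2 of 9 T cell markers fell, as CCL4 and CCL14 did, and their part was not tested. At T24 CCL5 was 1.20 ± 0.42 higher after PMA-Ionomycin than in mock cells (adjusted p = 0.0304). Of 3 NK cell markers found, 2 rose in that comparison (median log2 FC 0.75), in the direction of CCL2, CCL4, CCL5, CCL20 and CCL27. Against LPS at T24, 2 of the 3 rose too (median log2 FC 0.78), where CCL20 and CCL27 were called higher. The part of the NK cell markers was not tested. CCL17, a ligand of CCR4, rose by 3.26 ± 0.76 in mock cells between both times (adjusted p = 0.00432). By rabbit (1, 2, 4 and 5) the rise was 5.79, 3.79, 2.68 and 0.78. At T24 the CCL17 difference of PMA-Ionomycin from LPS was -2.18 ± 0.76 (adjusted p = 0.0257), negative in 3 of 4 rabbits and with overlapping groups. In the same order of rabbits it was -3.23, -0.77, 0.11 and -4.84, so that its size rested mostly on rabbits 1 and 5. The median log2 FC of the 6 after PMA-Ionomycin was 0.18 at T4 and -0.02 at T24, beside 0.05 and 0.03 over all genes.

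Of 14 CC chemokine receptors, 12 were found. None was called after LPS. After PMA-Ionomycin, 1 rose and 3 fell at T4, beside 13.4% of all genes higher and 9.35% lower. At T24 none rose and 5 fell, beside 22.1% higher and 11.5% lower. The median log2 FC of the 12 was -0.09 at T4 and -0.16 at T24, and that of all genes was 0.05 and 0.03. CCR2, the receptor of CCL2, had group means between -0.65 and -0.34 and was not called in any comparison. CCR7, the receptor of CCL21, rose at T4 by 1.37 ± 0.22 (limma, adjusted p = 4.69e-05), from 3.71 to 5.08, and at T24 its means were 3.68 in mock and 3.73 in PMA-Ionomycin cells. The interaction with time was -1.32 ± 0.31 (adjusted p = 0.00268).

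CCR10, the receptor of CCL27, fell after PMA-Ionomycin at T24, where CCL27 rose. At T24 CCR10 was well above background on all 4 mock arrays and on none after PMA-Ionomycin, a bound of at least 2.06-fold lower (adjusted p = 3.59e-05). At T4 it was lower by -0.89 on the log2 scale (adjusted p = 0.000387), and in mock cells it was lower at T24 than at T4 by -0.94 (adjusted p = 0.000495). CCR1, a receptor of CCL14, fell by 1.31 ± 0.28 at T4 (adjusted p = 0.000942) and by 2.48 ± 0.28 at T24 (adjusted p = 1.35e-07) after PMA-Ionomycin. In mock cells CCR1 rose by 2.19 ± 0.28 from T4 to T24 (adjusted p = 5.51e-06). CCR6, the receptor of CCL20, fell by 1.03 ± 0.17 at T4 and by 1.26 ± 0.17 at T24. CCRL2, an atypical receptor that binds chemerin, fell by 3.82 ± 0.69 at T24 (adjusted p = 8.92e-05). Monocyte markers, of which 4 of 10 fell at T4 and 8 of 10 at T24 after PMA-Ionomycin, moved in the same direction as CCR1 and CCRL2. Of 7 B cell markers, 4 fell and 1 rose at each time, with a median log2 FC of -1.70 at T4 and -0.59 at T24, beside the fall of CCR6. At T24, 3 of 5 neutrophil markers (median -1.07) and all 3 dendritic cell markers found (median -0.63) fell too, and at T4 so did 4 of 5 platelet markers (median -1.60). The part of any of these lists in these changes was not tested.

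**Figure D4:**
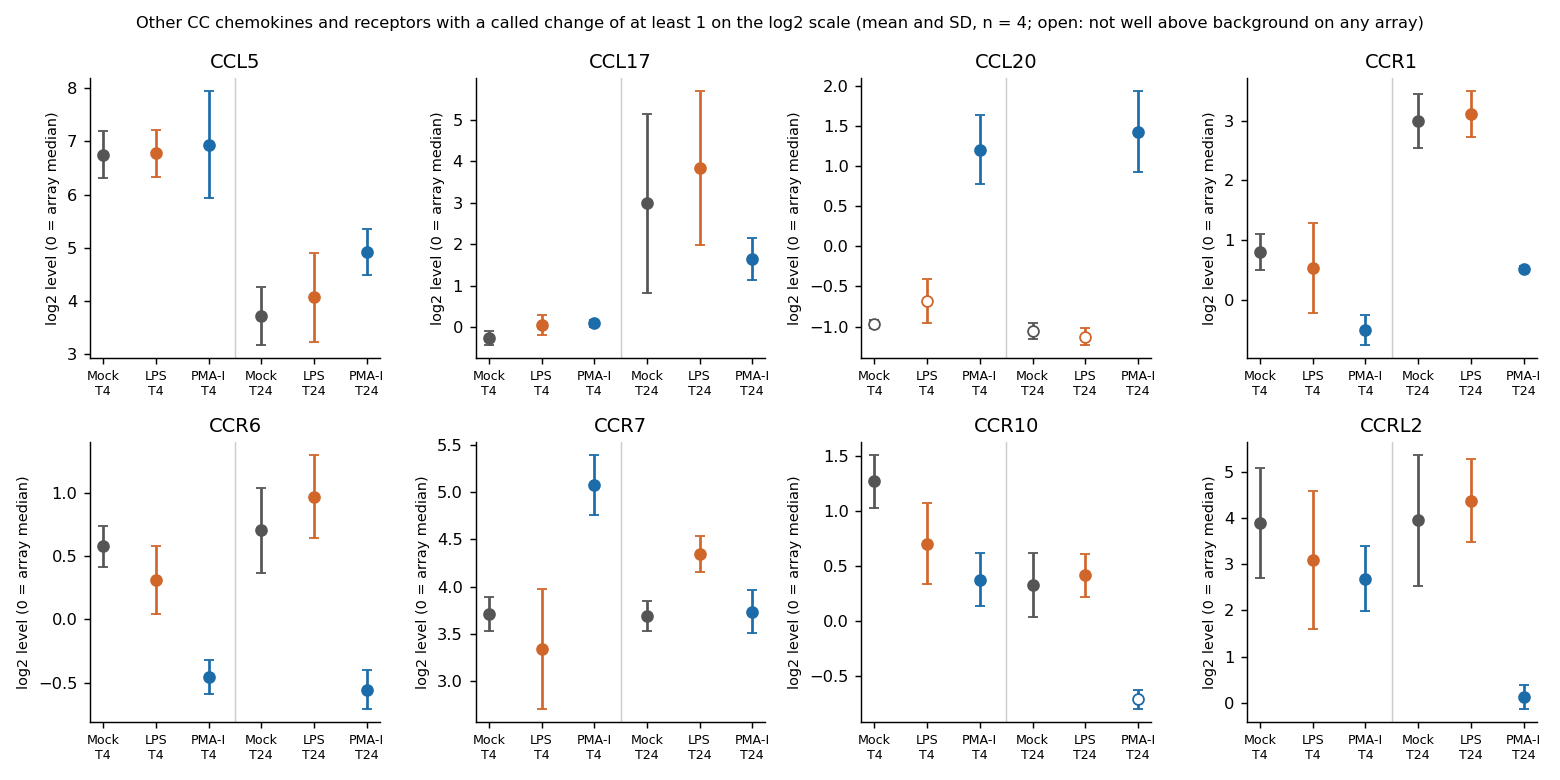
Mean log2 levels with SD (y axis, a scale for each gene) of 3 other CC chemokines and 5 receptors in the 6 groups (x axis, n = 4 rabbits each). Open symbols mark groups with no array well above background. CCL20 was above background in both PMA-Ionomycin groups alone, and CCR1, CCR6, CCR10 and CCRL2 were lower after PMA-Ionomycin than in mock cells at both times or at T24.

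Of 23 genes that carry or limit the receptor signal or trim chemokines, 14 were found. After LPS, VAV1, an exchange factor for Rac, fell by 1.01 ± 0.22 at T4 (limma, adjusted p = 0.0383), and none of the 14 was called at T24. After PMA-Ionomycin, 2 of the 14 rose and 5 fell at T4, and 2 rose and 7 fell at T24, so that 7 and 9 were called beside 22.8% and 33.6% of all genes. Their median log2 FC was -0.29 at T4 and -0.41 at T24. RGS2, which shortens the signal of G proteins, rose by 4.72 ± 0.37 at T4 and by 1.62 ± 0.37 at T24 (adjusted p = 1.9e-09 and 0.00111). RAC2, a GTPase of blood cells, fell by 2.26 ± 0.27 at T4 (adjusted p = 8.52e-07), and VAV1 fell by 1.65 ± 0.22 at T24 (adjusted p = 1.84e-06). The other gene that rose at T24 was DPP4, the surface peptidase that trims several chemokines. In mock cells at T24 DPP4 was near background, with a mean level of -0.41 and 0 of 4 arrays well above background.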

How the data were processed

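PBMC RNA was measured on Agilent one-colour arrays, 1 per culture. The authors deposited scanner output of Feature Extraction 10.7.3.1, in which the median signal is a spot intensity without correction or scaling, and a log2 table, which equals the log2 of that signal after centring each array on its mean. Groups come from the labels.

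The log2 median signal of 61657 non-control spots was centred on the array median, without outlier spots (280 to 370 per array), and averaged by probe and by gene (42089 probes, 28863 genes). Probes were named by RefSeq accession (11022), gene number (8499), the authors' added gene set (460) or gene name (310), and 21798 had no symbol. limma 3.58.1 in R 4.3.3 fitted a mean for each of the 6 groups on all 24 arrays, after the authors' methods. Python 3.11.15 with pandas 2.3.3 made the tables. The fit was also run on simulated data drawn without an effect of the rabbit, so that run does not bear on the pairing of cultures. The number of arrays limits the precision. A gene not well above background on any array of a group has only a bound there. For such a bound the brighter group's mean was set against the lowest detected signal of each array or the gene's own value, whichever is higher.

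Alternatives for the values were the deposited log2 table, quantile normalization, normexp (offset 50) followed by it, the scanner's processed signal at a common 75th percentile, keeping outlier spots and dropping dim probes. Alternatives for the fit were only the arrays compared, a block for the rabbit or for the slide, weighted arrays, a robust prior with trend, single probes, a minimum FC of 2 and each rabbit left out in turn. Leaving out the probes of the added gene set, and the correlations without 1 array, were chosen after seeing the data.

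Rabbit numbers mark the same animals. Deviations from group means had a median correlation of 0.228 over 60 pairs of arrays of a rabbit and -0.0748 over 180 pairs of different rabbits in other groups. Members and lists were chosen with earlier results of these data known. Named with values were all members, called genes of the lists of CC chemokines and receptors with a log2 FC of at least 1 (up to 6 a list and comparison), up to 3 called signalling genes a comparison, and the 3 genes most like each member. CCR2, and CCR10 at T4 and in mock cells, were added after their values were seen. The other marker lists were NK cells (1 or 2 of the 3 found on all arrays of a group), platelets (1 to 4 of 5), neutrophils (2 to 4 of 5), erythrocytes (1 or 2 of 5) and dendritic cells (1 or 2 of 3).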

Additional observations from a re-analysis of the deposited data

Results flagged for a closer look

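Among the 30 sets of 4 levels (5 genes in 6 groups), 2 held a rabbit far from the others by Dixon's test at the 95% level, which divides the gap to the nearest value by the whole range. Chance alone marks about 1 in 20 such sets. The CCL4 level of rabbit 5 after LPS at T4 was 11.96, and the other 3 lay between 12.48 and 12.55, a gap of 0.876 of the range. The CCL21 level of rabbit 5 in mock cells at T24 was 0.68, and the other 3 lay between -0.70 and -0.58, a gap of 0.911 of the range. The effect of PMA-Ionomycin on CCL27 differed between T24 and T4 by 0.97 on the log2 scale in limma's test of the interaction (adjusted p = 0.000816, 4 of 4 rabbits).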

How the results depend on the processing

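Over 45 log2 FC (5 chemokines in 9 comparisons), 722 of 792 alternative values kept direction and side of the threshold, 23 lost a call, 25 gained one and 22 changed sign. CCL14 has no value without the added gene set, and CCL21 none without dim probes, since all their probes are left out there. No member was called after LPS at T4 and 1 was after PMA-Ionomycin at T4 under every alternative. After LPS at T24 0 were called, and 0 to 1 leaving out a rabbit. With the rabbit as a replicate block 3 were (CCL2, CCL4, CCL27), with array weights 3, with the processed signal 2 and without dim probes 1. The number of all genes called there also rose, from 352 to 749 with the block and to 936 with array weights. The block also called CCL14 in PMA-Ionomycin against LPS at T24 and CCL2 in the LPS by time interaction, and changed no other member's call. After PMA-Ionomycin at T24, with 4 called, 2 were with only the arrays compared, 5 with the deposited log2 table, which added CCL14, and 2 to 4 leaving out a rabbit. Between the mock cultures, with 3 called, 2 to 4 were. For PMA-Ionomycin against LPS at T4, 2 were called, and 1 to 2 leaving out a rabbit. There 1 was called with the processed signal, the deposited log2 table, only the arrays compared, the slide as a block, array weights or a FC of at least 2. Leaving out the added gene set also left 1, but that step removes the only CCL14 probe and is no test of its call. At T24, with 1 called, 2 were with the processed signal, the deposited table, the replicate block or array weights, 3 with only the arrays compared, and 1 to 2 leaving out a rabbit. In the LPS by time interaction 0 were called, and 1 with the replicate block or array weights, beside 1661 and 2181 of all genes. In that of PMA-Ionomycin, with 1 called, 3 were with the processed signal and 0 with a FC of at least 2.
No gene changed sign in a comparison where that gene was called. CCL21 was at background in every T4 group and in the stimulated T24 groups, so that its signs there are those of fitted values and no measured order. After LPS at T4 it was -0.065 with quantile normalization, -0.045 with normexp and -0.042 to 0.085 leaving out a rabbit, and CCL27 was -0.036 to 0.089 leaving out a rabbit. After PMA-Ionomycin at T4, CCL14 was -0.040 with the processed signal, -0.0098 with the deposited table, -0.016 with array weights and -0.031 to 0.15 leaving out a rabbit, where CCL21 was -0.11 to 0.011 and CCL27 -0.0075 to 0.28. For PMA-Ionomycin against LPS at T4, CCL4 was -0.26 with the processed signal, -0.00074 with the deposited table and -0.050 with array weights. At T24, CCL2 was -0.32 with quantile normalization and -0.32 with normexp. Leaving out a rabbit, CCL2 was -0.13 to 0.94 and CCL21 -0.11 to 0.056 in that comparison, CCL27 was -0.21 to 0.069 between the mock cultures, and in the PMA-Ionomycin by time interaction CCL2 was -0.85 to 0.24 and CCL4 -0.17 to 1.91. The causes were not tested. Counts over all genes moved most for LPS, from 297 at T4 to between 0 (only the arrays compared) and 1230 (replicate block), from 352 at T24 to between 47 and 936, and from 561 in the interaction to between 7 and 2181. With a FC of at least 2, PMA-Ionomycin called 2669 genes at T4 in place of 6579 and 4705 at T24 in place of 9704. Signals near background limit CCL14 and CCL21.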
